A study of Mus musculus with 8 samples.

Results

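Expression of 10 immediate-early and stress genes was examined in yolk sacs of mouse embryos in which Notch signaling had been activated or blocked in the endothelium. The genes were Jun, Junb and Jund of the Jun family, Fos and Fosb of the Fos family, Atf3 of the ATF family, the zinc finger factor Egr1, the immediate-early response genes Ier2 and Ier3, and the stress gene Gadd45b. They were taken by symbol from the 18194 genes that have a probe set of their own in the annotation of the array, and all 10 were found, on 14 probe sets. Where a gene had several probe sets, the one whose signal was highest on average over the 8 arrays was chosen by that measured value, and the rest were kept as a check. The mean signal of the chosen probe set was 163 for Jun, against 143 for the one passed over. It was 311 for Gadd45b, against 183 and 36.6, and 1152 for Jund, against 27.9. A filter kept the 10913 genes whose mean signal lay above the 40th percentile of all genes, and 9 of the 10 genes passed it. Fosb did not. Junb passed closely, with a mean of 68.8 where the lowest mean of any tested gene was 68 and the highest mean left out was 67.9. It passed only through the wild type of the EC-Rbpj-KO set, at 123 and 134, with 32 to 71 on the other arrays.

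Immediate-early genes are transcribed within minutes of a growth factor, mechanical or stress signal, from promoters already open to transcription factors, and most of their mRNAs decay fast. Jun, Fos and ATF proteins share a leucine zipper through which they pair to form the transcription factor AP-1, whose make-up decides which sites are bound and whether transcription is raised or lowered. JNK and the other MAP kinases act on Jun and ATF proteins, while SRF and its partners act on the promoters of Fos and Egr1. In blood vessels these genes are known as early responders to flow and to vascular growth factors.

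RNA of whole yolk sac at embryonic day 9.5 was hybridized to 8 single-channel Affymetrix arrays, in 2 sets of 4. EC-N1ICD embryos (Tie2 Tg/0; ROSA +/N1ICD, strain C57BL6) carry a Notch1 intracellular domain that Cre switches on, and were compared with wild type embryos of the same set (Tie2 0/0; ROSA +/+). EC-Rbpj-KO embryos (Tie2-Cre; Rbpj flox/flox, mixed strain) lack Rbpj, through which activated Notch binds DNA, where Cre is active, and were compared with the wild type arrays of their own set, which are named wild type with no genotype given. Each of the 4 groups held 2 arrays. The Tie2 promoter drives Cre in endothelial cells and also in blood lineages, while the RNA came from all cells of the yolk sac, so a lower share of a cell type and less RNA in each of its cells cannot be told apart. The sample descriptions do not state that each array held a separate embryo, and p-values measure the spread between these arrays.

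Promoter sequences are given for Jun, Gadd45b and Junb, the genes with a change past the test, and for Fos, the Fos family member with signal well above background. Each window is the 250 bases before the annotated start in RefSeq (build GRCm38.p6), 5′ to 3′ on the strand of the gene. Windows of 8 of the 10 genes were used, and no window of Egr1 or Ier2 was searched. Capitals mark matches to the motifs searched, and bases are counted back from the start, with -1 next to it. Jun lies at chr4:95052223-95052472 on the minus strand, Gadd45b at chr10:80929841-80930090 on the plus strand, Junb at chr8:84978749-84978998 on the minus strand and Fos at chr12:85473640-85473889 on the plus strand.
Jun: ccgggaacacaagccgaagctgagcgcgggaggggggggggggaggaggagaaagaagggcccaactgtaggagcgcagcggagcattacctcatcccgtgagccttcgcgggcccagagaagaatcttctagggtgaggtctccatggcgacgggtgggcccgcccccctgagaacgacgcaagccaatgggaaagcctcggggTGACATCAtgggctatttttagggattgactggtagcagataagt
Gadd45b: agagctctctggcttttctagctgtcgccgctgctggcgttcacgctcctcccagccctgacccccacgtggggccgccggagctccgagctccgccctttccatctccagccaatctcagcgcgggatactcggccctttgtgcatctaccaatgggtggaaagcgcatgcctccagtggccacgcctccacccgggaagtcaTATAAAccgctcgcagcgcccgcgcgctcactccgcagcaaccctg
Junb: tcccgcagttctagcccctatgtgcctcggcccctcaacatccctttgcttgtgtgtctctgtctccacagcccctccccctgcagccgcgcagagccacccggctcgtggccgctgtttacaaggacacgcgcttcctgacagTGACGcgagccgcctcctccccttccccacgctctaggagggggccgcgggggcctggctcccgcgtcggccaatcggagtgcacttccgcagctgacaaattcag
Fos: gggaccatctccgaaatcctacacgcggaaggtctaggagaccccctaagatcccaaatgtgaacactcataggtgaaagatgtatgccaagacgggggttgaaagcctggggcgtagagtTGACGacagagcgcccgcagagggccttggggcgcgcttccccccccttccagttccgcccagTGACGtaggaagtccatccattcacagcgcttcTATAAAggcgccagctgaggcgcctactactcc

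The motifs were searched on both strands of the 8 windows. They were the AP-1 site TGANTCA, the related site TGACNTCA, the CRE core TGACG, which can overlap TGACNTCA but did so in none of these genes, the CArG box bound by SRF, the RBPJ site GTGGGAA and the TATA box TATAAA. Jun held TGACATCA, a match of TGACNTCA, at -45 to -38, and 7.49% of 32851 promoters of the same length held that motif. TGACG was found in Fos (at -129 and at -66), Junb (at -106), Fosb (at -60) and Atf3 (on the other strand, at -7), and in 17.8% of all promoters. TATAAA was found at -33 in Fos and at -46 in Gadd45b, and in 12.4% of all promoters. None of the 8 windows held TGANTCA, a CArG box or GTGGGAA in these letters, which were present in 6.75%, 1.47% and 5.42% of all promoters. Bases farther from the start were not searched, and Egr1 was not among the 8 genes. Whether Fos or Egr1 has a CArG box outside these windows was not tested. These matches describe the sequence and not binding.

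Gadd45b was the only one of the 10 genes that rose past the test in both models, by 2.12-fold in EC-N1ICD and by 3.81-fold in EC-Rbpj-KO. Jun rose 3.31-fold in EC-N1ICD, and its 2.32-fold difference in EC-Rbpj-KO narrowly missed the threshold. Junb fell in EC-Rbpj-KO, to 0.353 of its wild type level, a call that was lost without the filter on low signals. Without that filter the EC-N1ICD calls of Jun and Gadd45b were lost too (adjusted p = 0.0529 for each by limma). These EC-N1ICD calls were also lost when sex was added as a term. The EC-Rbpj-KO call of Gadd45b was kept in both cases. Egr1 and Ier3 had arrays above those of the wild type in both models, by 1.89-fold to 2.05-fold, with no call in either. Fold changes are ratios of geometric means, the test was limma on log2 signals over all 10913 genes, and a call is an adjusted p under 0.05. The genes were proposed with earlier results of these arrays known, so these p-values describe them and are not independent evidence.

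**Figure D1:**
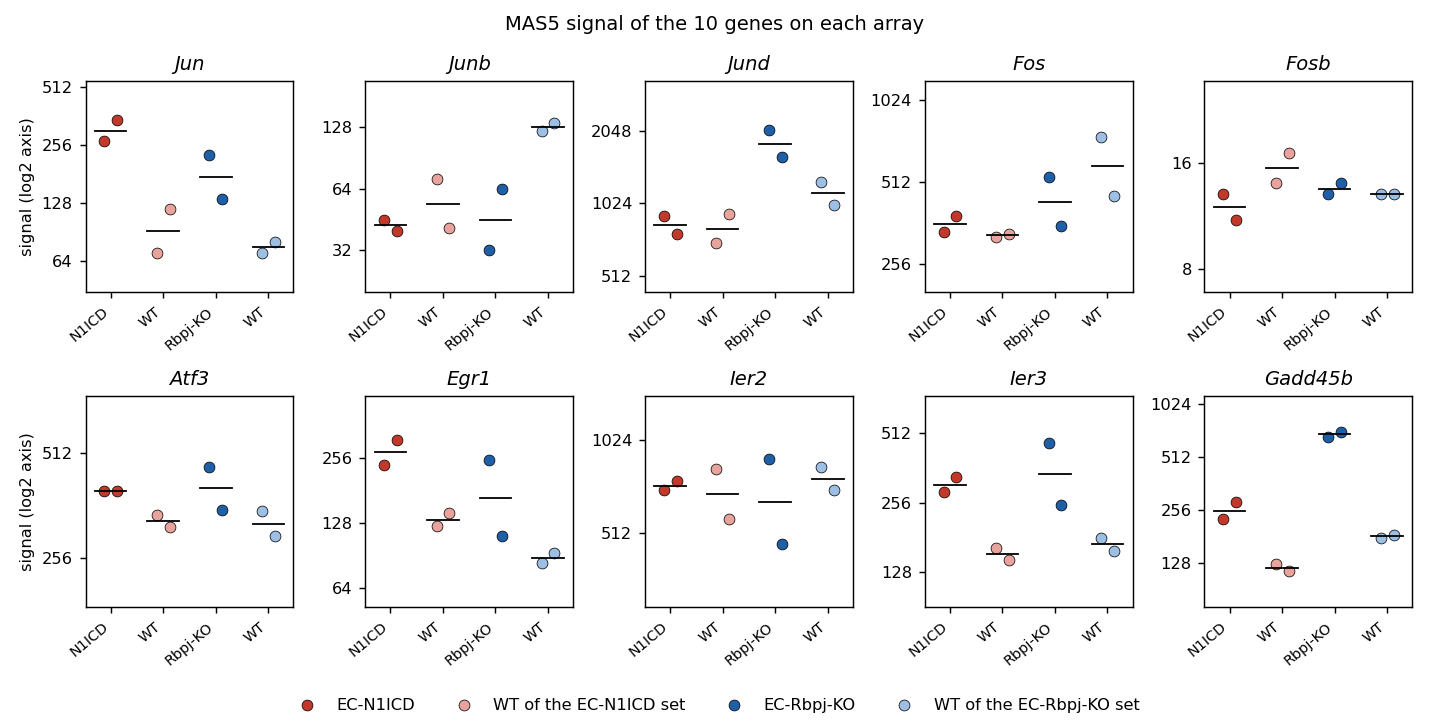
MAS5 signal of each gene (log2 axis, a scale of its own in each panel) on the 2 arrays of each group, with the mutant left of the wild type of its set and a bar at the geometric mean. The Gadd45b points of both mutants lie above all wild type points of their sets, and the Jun points of EC-N1ICD, at 266 and 342, lie above those of their wild type, at 70 and 119.

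Gadd45b encodes a small stress-induced protein that binds the kinase MTK1 and so acts on p38 and JNK signaling. Signals on the EC-Rbpj-KO arrays were 664 and 714, against 177 and 185 in their wild type. In EC-N1ICD they were 228 and 282, against 125 and 114 in wild type. Mutant arrays were above wild type arrays in both sets with no overlap, and the spread within each group was small beside the distance between groups. The change was 1.93 in log2 units in EC-Rbpj-KO tissue (standard error 0.19, n = 2 per group, adjusted p = 0.000439 by limma). It was 1.09 in EC-N1ICD (standard error 0.19, n = 2 per group, adjusted p = 0.0272 by limma). Over all tested genes 0.376% were called higher in EC-N1ICD, 2% in EC-Rbpj-KO and 0.128% in both. The next probe set of Gadd45b gave 341 and 369 in EC-Rbpj-KO tissue, against 111 and 115 in wild type, and 159 and 183 in EC-N1ICD, against 95 and 90 in wild type, a 3.14-fold and a 1.85-fold difference with no overlap in either set. The dimmest probe set ran from 22 to 56 over all arrays, near the array medians of 38 to 51, and is limited by background. In EC-Rbpj-KO the call was kept under 18 of 19 alternatives and lost under the methods' t-test after adjustment. In EC-N1ICD it was lost under 10 of 19, among them leaving out any 1 array of that set (adjusted p = 0.108 to 0.173 by limma, log2 change 0.93 to 1.24).

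Jun encodes c-Jun, the founding partner of AP-1 and a main substrate of JNK. Its signals were 266 and 342 in EC-N1ICD yolk sacs, against 70 and 119 in their wild type. On the EC-Rbpj-KO arrays they were 226 and 133, against 70 and 80 in wild type. Both mutants lay above their wild types with no overlap, the mutant arrays of EC-Rbpj-KO stood farther apart than those of EC-N1ICD, and 1 wild type array of the EC-N1ICD set stood above the other 3. The change in EC-N1ICD was 1.72 on the log2 scale (standard error 0.32, 95% confidence interval 1.03 to 2.42, n = 2 per group, adjusted p = 0.0364 by limma). In EC-Rbpj-KO it was 1.21 (standard error 0.32, 95% confidence interval 0.52 to 1.91, n = 2 per group, adjusted p = 0.0516 by limma). The other probe set of Jun gave 218 and 273 in EC-N1ICD, against 61 and 66 in wild type, a 3.85-fold difference. In EC-Rbpj-KO it gave 279 and 115, against 48 and 84 in wild type, a 2.82-fold difference. Both probe sets thus placed every mutant array above every wild type array of its set. The call in EC-N1ICD was lost under 9 of 18 alternatives, among them leaving out any 1 array of that set (log2 change 1.34 to 2.11). That in EC-Rbpj-KO was gained under 4 of 18, which were median centring and leaving out EC-Rbpj-KO replicate 2 (log2 difference 1.59) or either wild type array of the EC-N1ICD set (1.21, where only the shared estimate of the spread changes). Without EC-Rbpj-KO replicate 1 it was 0.83 (adjusted p = 0.186 by limma).

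Junb encodes a Jun protein that often opposes c-Jun at shared sites. In EC-Rbpj-KO its signals were 32 and 64, against 123 and 134 in wild type. In EC-N1ICD they were 45 and 40, against 71 and 41 in wild type. The groups were apart in the EC-Rbpj-KO set, with the mutant arrays low, and overlapped in the EC-N1ICD set. The change was -1.50 in log2 units in EC-Rbpj-KO tissue (standard error 0.39, n = 2 per group, adjusted p = 0.0499 by limma) and -0.35 in EC-N1ICD (standard error 0.39, adjusted p = 0.818 by limma). Junb was dimmer than the median probe set on 4 of the 8 arrays, both EC-N1ICD arrays among them, so the size of its fold is limited by background. The call was lost under 13 of 18 alternatives, among them leaving out any 1 array but EC-Rbpj-KO replicate 2, with a log2 change of -2.004 to -1.004. Leaving out EC-Rbpj-KO replicate 1, the lower array, gave -1.004, and leaving out replicate 2 gave -2.004. With 4.96% of all tested genes called in either direction in EC-Rbpj-KO, Junb was the only one of the 9 genes called lower. It passed the filter only through the high wild type arrays on which this call rests, so the call is not independent of the filter.

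Jund encodes the most constantly expressed Jun protein, which is less dependent on stimulation than the others. Its signals were 2060 and 1588 in EC-Rbpj-KO tissue, against 1261 and 1009 in wild type. In EC-N1ICD they were 909 and 765, against 700 and 924 in wild type. The mutant arrays were higher with no overlap in the EC-Rbpj-KO set only, and in the EC-N1ICD set the 2 groups were interleaved. The difference was 0.68 in log2 units in EC-Rbpj-KO tissue (standard error 0.20, n = 2 per group, adjusted p = 0.0781 by limma), a 1.603-fold difference that did not pass the test. It was 0.05 in EC-N1ICD (95% confidence interval -0.39 to 0.49, adjusted p = 0.958 by limma). The other probe set of Jund, at 20 to 37 on every array, was at background.

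**Figure D2:**
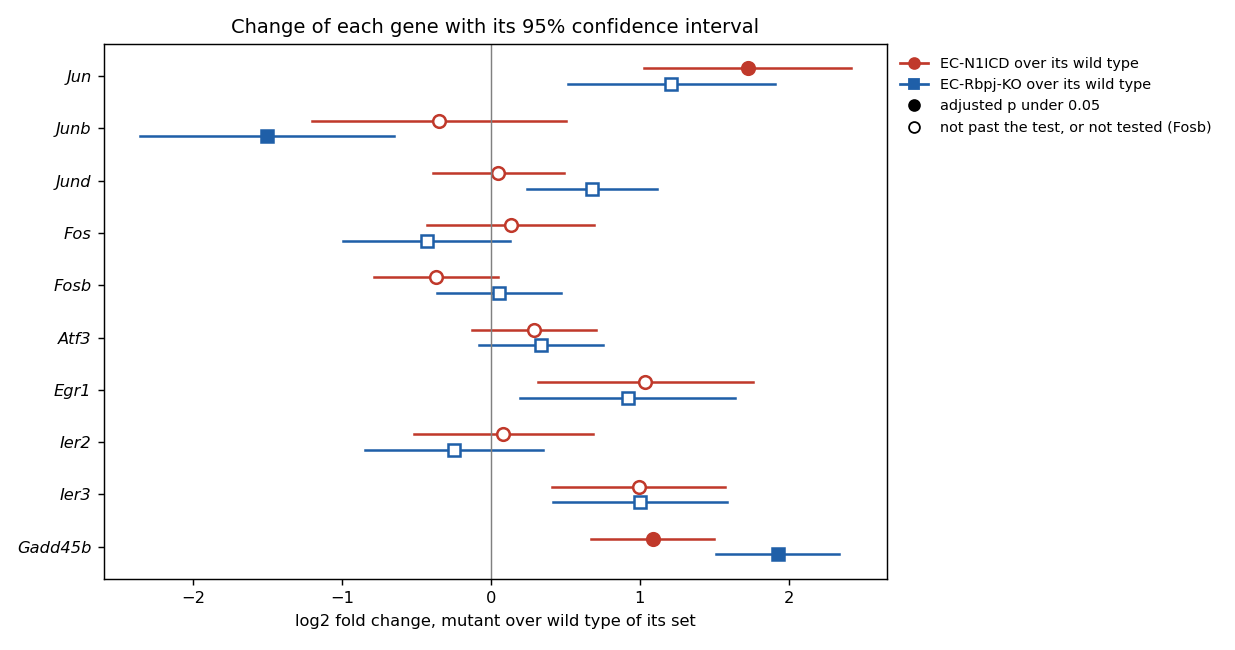
Log2 fold change of each gene, mutant over the wild type of its set, with bars for the 95% confidence interval and filled symbols for an adjusted p under 0.05 (limma, n = 2 per group). Jun and Gadd45b are filled in EC-N1ICD and Gadd45b and Junb in EC-Rbpj-KO, and the intervals of Egr1 and Ier3 lie above 0 in both models without a call.

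Fos encodes c-Fos, which cannot pair with itself and binds DNA with a Jun partner. Its signals were 333 and 383 in EC-N1ICD, against 321 and 330 in wild type. EC-Rbpj-KO arrays gave 532 and 352, against 750 and 453 in wild type. The EC-N1ICD arrays were above their wild type by a narrow margin, and the EC-Rbpj-KO set overlapped. Fos differed by 0.13 on the log2 scale in EC-N1ICD (95% confidence interval -0.43 to 0.70, adjusted p = 0.906 by limma) and by -0.43 in EC-Rbpj-KO (95% confidence interval -0.99 to 0.13, adjusted p = 0.381 by limma). Fosb, its close relative, had signals of 11 to 17 on all 8 arrays, below the array median on each, so it was not measured above background.

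Atf3 encodes a stress-induced ATF protein that pairs with Jun proteins and can repress transcription. Its signals were 397 and 399 in EC-N1ICD, against 339 and 313 in wild type. EC-Rbpj-KO arrays read 466 and 352, against 348 and 296 in wild type. Mutant arrays lay above wild type arrays in both sets, though in the EC-Rbpj-KO set the lower mutant array and the upper wild type array almost touched. The differences were 0.29 in EC-N1ICD (95% confidence interval -0.13 to 0.71, adjusted p = 0.622 by limma) and 0.34 in EC-Rbpj-KO (95% confidence interval -0.08 to 0.75, adjusted p = 0.355 by limma) on the log2 scale, neither past the test.

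Egr1 encodes a zinc finger transcription factor induced in endothelium by flow and by growth factors. Its signals were 237 and 310 in EC-N1ICD, against 123 and 142 in wild type. In EC-Rbpj-KO they were 249 and 111, against 83 and 93 in wild type. Every mutant array was above the wild type arrays of its set, with the 2 EC-Rbpj-KO arrays far apart and the lower one close to wild type. The difference was 1.04 on the log2 scale in EC-N1ICD (standard error 0.33, n = 2 per group, adjusted p = 0.210 by limma). In EC-Rbpj-KO the difference was 0.92 (standard error 0.33, n = 2 per group, adjusted p = 0.144 by limma). Without EC-Rbpj-KO replicate 2 the EC-Rbpj-KO difference was 1.503 and passed the test (adjusted p = 0.0125 by limma), and without replicate 1 it was 0.34.

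Ier3 encodes a short-lived protein that acts on cell survival under stress. Its signals were 283 and 331 in EC-N1ICD, against 163 and 145 in wild type. EC-Rbpj-KO yolk sacs had 461 and 249, against 180 and 159 in wild type. All mutant arrays were above all wild type arrays, and the 2 models differed from their wild types by nearly the same fold. The difference was 0.99 on the log2 scale in EC-N1ICD (1.99-fold, standard error 0.27, n = 2 per group, adjusted p = 0.141 by limma). In EC-Rbpj-KO it was 1.002 (2.003-fold, standard error 0.27, n = 2 per group, adjusted p = 0.0545 by limma). Ier3 passed the test in EC-Rbpj-KO under 3 of 18 alternatives, with median centring, with quantile normalization and without EC-Rbpj-KO replicate 2 (log2 difference 1.45). Without replicate 1 the difference was 0.56 (adjusted p = 0.195 by limma), so the like fold in the 2 models rests on the mean of 2 distant arrays. Ier3 passed in EC-N1ICD when either EC-Rbpj-KO array was left out, which changes only the shared estimate of the spread, and by the methods' t-test unadjusted.

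Ier2, a nuclear protein of the immediate-early response, did not follow Ier3. Its signals were 705 and 755 in EC-N1ICD, against 828 and 571 in wild type, and the wild type arrays enclosed the mutant ones. In EC-Rbpj-KO they were 891 and 473, against 842 and 705 in wild type, and here the mutant arrays enclosed the wild type ones. The differences were 0.09 in EC-N1ICD (95% confidence interval -0.51 to 0.68, adjusted p = 0.950 by limma) and -0.25 (95% confidence interval -0.85 to 0.35, adjusted p = 0.667 by limma) in EC-Rbpj-KO, both in log2 units.

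Counted over the 9 tested genes, 2 were called in EC-N1ICD, both higher, where 0.596% of all tested genes were called in either direction. In EC-Rbpj-KO 2 were called, 1 in each direction, where 4.96% of all tested genes were called in either direction. The lower one, Junb, was tested only because its wild type arrays in that set were high. At an unadjusted p under 0.05 there were 4 of 9 in EC-N1ICD, against 1309 of 10913 genes, and 6 of 9 in EC-Rbpj-KO tissue, against 2175 of 10913. The median log2 difference of the 9 was 0.29 in EC-N1ICD, where that of all genes was 0.01, and 0.68 in EC-Rbpj-KO, where that of all genes was -0.02. In EC-N1ICD both mutant arrays were above both wild type arrays for 6 of the 9 (Jun, Fos, Atf3, Egr1, Ier3 and Gadd45b) and for 23.7% of all genes, and the other 3 overlapped. In EC-Rbpj-KO they were above for 6 (Jun, Jund, Atf3, Egr1, Ier3 and Gadd45b), against 23.3% of all genes, and below for Junb alone, against 27.5%. Jun, Atf3, Egr1, Ier3 and Gadd45b were above in both sets, as were 8.33% of all genes. These counts describe a list proposed with such values known.

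The contrast of the 2 changes addressed whether a gene responded differently in the 2 models. None of the 9 genes was called by limma, where 29 of 10913 genes (0.266%) were, and 2 of the 9 had an unadjusted p under 0.05. Gadd45b changed by 0.84 less in EC-N1ICD than in EC-Rbpj-KO in log2 units (contrast -0.84, 95% confidence interval -1.43 to -0.26, adjusted p = 0.285 by limma). Jund had a contrast of -0.63 (adjusted p = 0.451 by limma) and Junb one of 1.16 (adjusted p = 0.488 by limma). For Ier3 the contrast was -0.01 with a 95% confidence interval from -0.83 to 0.82, and for Egr1 it was 0.12 with an interval from -0.90 to 1.14. These intervals are wide, so similar point values do not show that either gene responded alike in the 2 models.

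**Figure D3:**
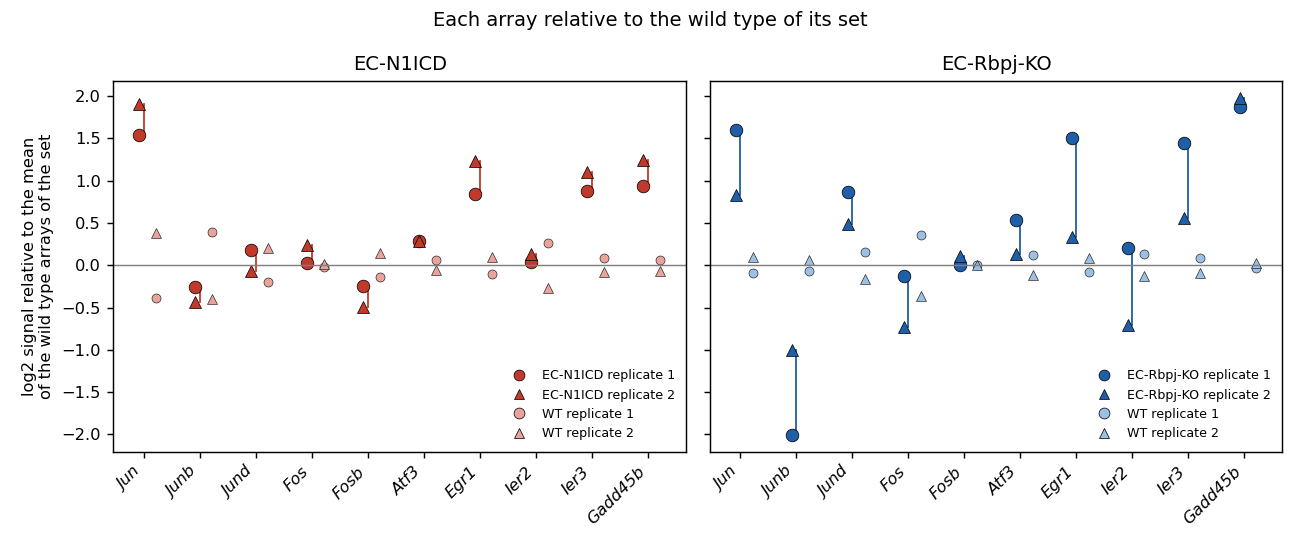
Log2 signal of each gene by array, with the wild type mean of the set at 0, with replicate 1 as circles and replicate 2 as triangles, and the mutant left of its wild type. In EC-Rbpj-KO the 2 arrays lie apart for Egr1, Ier2, Ier3, Jun and Junb, while those of Gadd45b nearly coincide.

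The 2 EC-Rbpj-KO arrays stood farther apart in most of these genes than in the median tested gene. The gap between them was 1.17 on the log2 scale for Egr1, 1 for Junb, 0.91 for Ier2, 0.89 for Ier3 and 0.76 for Jun, and only 0.10 for Gadd45b. Replicate 1 was the higher array for 7 of the 9 genes, with Junb and Gadd45b the other way. The median gap of the 9 genes was 0.76, against 0.23 over all tested genes, and 6 of the 9 had a gap over 0.5, against 17.7% of all tested genes. Within EC-N1ICD the median gap was 0.23, against 0.15 over all genes, and no member reached 0.5. The mean of the 9 genes relative to their wild type came to 0.66 for EC-Rbpj-KO replicate 1 and 0.21 for replicate 2, with 0.50 and 0.63 on the EC-N1ICD arrays. Replicate 1 of either mutant carries a first number in its sample name that differs from the other 3 of its set, and its meaning is not given.

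EC-Rbpj-KO replicate 1 also differed from replicate 2 in other values. Xist, the RNA of the inactive X chromosome, was at 2005 on it and at 84 on replicate 2, against 90 and 77 in wild type. Xist was at 3600 and 3730 in EC-N1ICD, against 96 and 96 in wild type. The Y-linked gene Eif2s3y was at 9, 9 and 12 on the 3 arrays with high Xist and at 702 to 870 on the other 5, so both EC-N1ICD arrays showed the female pattern, both wild type arrays of that set the male one, and sex and genotype cannot be told apart within it. A fit with sex as a term takes its estimate from EC-Rbpj-KO replicate 1 alone. In that fit the EC-N1ICD difference on the log2 scale was 0.96 for Jun (adjusted p = 0.441 by limma), 1.19 for Gadd45b (adjusted p = 0.213 by limma), 0.10 for Ier3 and -0.13 for Egr1. None of the 9 genes and 15 of 10913 were called there. In EC-Rbpj-KO the same fit, whose log2 values there equal those without replicate 1, kept the call of Gadd45b at 1.98 (adjusted p = 0.00262 by limma). Junb lost its call at -1.004 (adjusted p = 0.169 by limma), and the differences of Jun, Ier3 and Egr1 were 0.83, 0.56 and 0.34, none of them called.

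Other measures also moved with genotype. The ratio of 3' to 5' signal of Actb, a sign of RNA quality, was 1.72 and 1.75 in EC-N1ICD, against 2.10 and 2.34 in wild type. In EC-Rbpj-KO it was 2.29 and 2.09, against 1.90 and 1.84 in wild type. That of Gapdh was highest, at 4.64, on EC-Rbpj-KO replicate 1. Of 7 tested macrophage markers 4 rose in EC-Rbpj-KO, and their summed signal was 4402 and 3077, against 1726 and 1190 in wild type. The summed signal was 2366 and 2115 in EC-N1ICD, against 1809 and 1764 in wild type, with 1 of the 7 called. Erythroid markers summed to 47124 and 79959 in EC-N1ICD, against 90761 and 95428 in wild type, and to 53731 and 65705 in EC-Rbpj-KO tissue, against 68182 and 66332 in wild type, with none called, though all 8 had an unadjusted p under 0.05 and were lower in EC-N1ICD. Mesoderm and smooth muscle markers summed to 31697 and 29488 in EC-N1ICD, against 21453 and 21079 in wild type, with 2 of 7 called higher, and to 22735 and 23148 in EC-Rbpj-KO tissue, against 21034 and 20412 in wild type, with 1 called lower. Megakaryocyte markers summed to 910 and 1430 in EC-N1ICD, against 2400 and 3410 in wild type, with 1 of 6 called lower, and to 1911 and 1313 in EC-Rbpj-KO tissue, against 1875 and 1641 in wild type, with none called. Endothelial markers overlapped in EC-N1ICD at 2827 and 2786, against 3543 and 2427 in wild type, and were 2971 and 2103 in EC-Rbpj-KO tissue, against 1661 and 1642 in wild type, with 1 of 7 called higher and Pecam1 below the array median on every array. The gene called there was Cldn5 (1095 and 715, against 302 and 273 in wild type). Tek went the other way in EC-Rbpj-KO (187 and 181, against 276 and 336 in wild type), so the endothelial markers did not rise together. Visceral endoderm markers, the main layer of the yolk sac, summed to between 151645 and 171465 on all arrays, with 1 of 9 called lower in EC-Rbpj-KO. That sum holds Trh, at 19 to 58 on the arrays, in place of the listed marker Trf. The part of RNA quality and of cell make-up in the changes of Jun, Gadd45b, Egr1 and Ier3 was not tested.

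As a check of the models, the Rbpj signal was 470 and 497 in EC-Rbpj-KO tissue, against 984 and 919 in wild type (log2 change -0.98, adjusted p = 0.00866 by limma). The Notch target Nrarp had 3112 and 2648 in EC-N1ICD, against 735 and 628 in wild type, and 1598 and 1514 in EC-Rbpj-KO tissue, against 855 and 1001 in wild type, and was called higher in both models (adjusted p = 0.000385 and 0.0222 by limma), as Gadd45b was. Hey1, another Notch target, rose in EC-N1ICD (319 and 298, against 147 and 103 in wild type, adjusted p = 0.0364 by limma) and was not called in EC-Rbpj-KO (log2 difference -0.07). Heyl was below the filter.

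**Figure D4:**
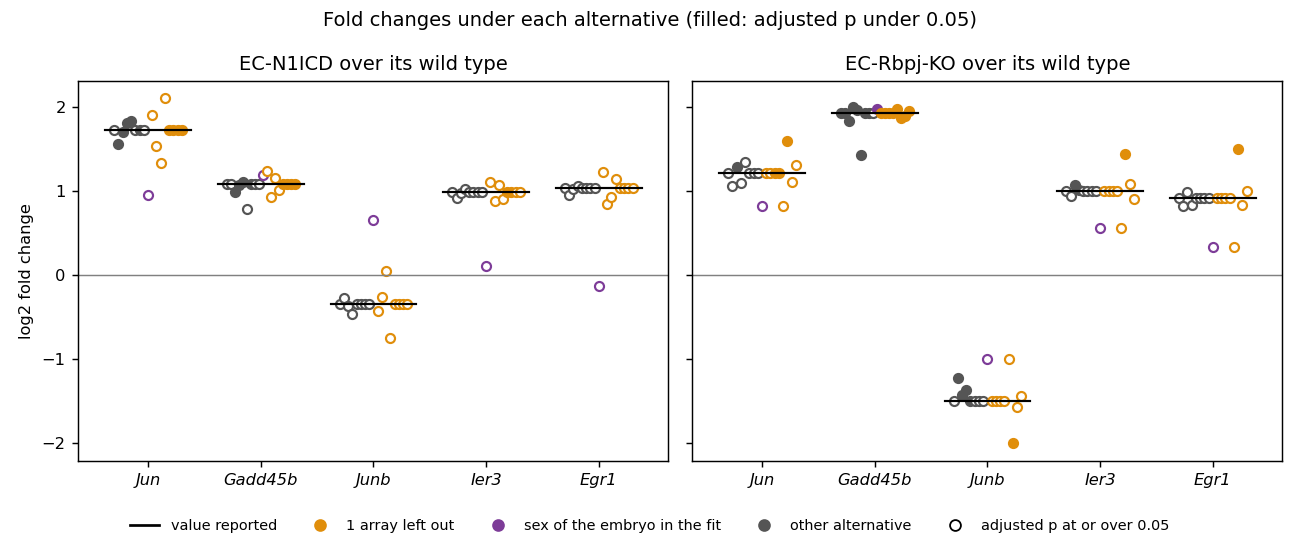
Log2 fold change of Jun, Gadd45b, Junb, Ier3 and Egr1 under each alternative (points) and as reported (bars), filled where the adjusted p is under 0.05. In EC-N1ICD the fit with sex moves Egr1 and Ier3 to near 0 and Jun to 0.96, while Gadd45b in EC-Rbpj-KO stays between 1.43 and 2.001.

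Levels also differed between the wild types of the 2 sets, which differ in strain and in the number that ends their sample names. The wild type of the EC-Rbpj-KO set stood at 2.38 times that of the EC-N1ICD set for Junb, 1.79 times for Fos, 1.52 times for Gadd45b, 0.665 times for Egr1 and 0.82 times for Jun. These ratios are descriptions with no test, and strain cannot be told apart from anything else that differs between the sets.

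Across the 8 arrays, taken relative to the wild type of each set, Ier3 followed the mean of the other members most closely (Pearson r = 0.97), then Egr1 (0.94), Atf3 (0.92) and Jun (0.86). Gadd45b (0.56) and Jund (0.37) followed it less, Ier2 (0.18) and Fos (0.04) hardly, and Junb ran opposite (-0.77). The 8 points share groups and scaling, so these r values are descriptions. The 5 genes outside the list whose profile was most like that of the members were Ap1g1 (0.98), Col2a1 (0.98), 2610008E11Rik (0.97), Ccng2 (0.97) and Stx3 (0.97). Of these Ccng2, an unconventional cyclin, had 359 and 502 in EC-N1ICD, against 243 and 173 in wild type, and 1101 and 662 in EC-Rbpj-KO tissue, against 488 and 389 in wild type. None of the 5 was called in either model.

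Other genes of the same pathways had small median changes as lists, though single genes moved in both directions. Of the other AP-1 and related bZIP factors 14 of 19 listed were tested, none was called in EC-N1ICD and 1 fell in EC-Rbpj-KO, with medians of -0.11 and -0.18 on the log2 scale. The gene that fell was Atf4, the effector of the integrated stress response (2093 and 2118 in EC-Rbpj-KO tissue, against 3140 and 2969 in wild type, log2 change -0.54, adjusted p = 0.0291 by limma). Of 18 tested JNK, p38 and ERK kinases and their activators none was called in either model by limma, with 1 at an unadjusted p under 0.05 in EC-N1ICD, with 5 in EC-Rbpj-KO and medians of 0.00 and -0.11. Of 5 tested genes of SRF and its cofactors none was called, with 0 and 1 at an unadjusted p under 0.05 and medians of 0.06 and 0.09.

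The 33 tested genes among 38 other immediate-early response genes had a median difference of 0.06 in EC-N1ICD, and their median in EC-Rbpj-KO was 0.04. None was called in EC-N1ICD, where 10 had an unadjusted p under 0.05 by limma, against 1309 of 10913 tested genes. They moved in both directions, which a median does not show. Ccn1, Ccn2, Plk2, Rhob, Errfi1 and Mcl1 were higher, by up to 2.54-fold for Ccn1. Klf2, Sgk1, Myc and Ier5l were lower, down to 0.521 of wild type for Klf2. In EC-Rbpj-KO 1 rose and 3 fell. Btg1, an anti-proliferative gene, rose by 0.53 on the log2 scale (adjusted p = 0.0428 by limma). Sgk1, a kinase induced by serum and glucocorticoids, fell with signals of 81 and 59, against 209 and 251 in wild type (log2 change -1.73, adjusted p = 0.00369 by limma). Myc, the growth-promoting transcription factor, had 260 and 179 in EC-Rbpj-KO tissue, against 431 and 430 in wild type (log2 change -0.997, adjusted p = 0.0278 by limma). Zfp36l2, which marks mRNAs for decay and was named after its values were seen, fell by 0.75 (adjusted p = 0.0444 by limma).

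Of 24 tested stress, heat shock and growth arrest genes 1 was called in each model, and the medians were 0.01 (EC-N1ICD) and -0.06 (EC-Rbpj-KO). At an unadjusted p under 0.05 by limma there were 6 in each model, against 1309 (EC-N1ICD) and 2175 (EC-Rbpj-KO) of 10913 tested genes. In EC-N1ICD these 6 were Ddit4, Hspa1b and Txnip, higher, and Trib3, Asns and Gadd45a, lower. For EC-Rbpj-KO they were Ddit4, Hspa1a and Hspa1b, higher, and Gadd45a, Hsph1 and Sqstm1, lower. Trib3, a target of the integrated stress response, fell in EC-N1ICD (229 and 308, against 594 and 741 in wild type, log2 change -1.32, adjusted p = 0.0165 by limma). Ddit4, an inhibitor of mTORC1 signaling induced by stress and low oxygen, rose in EC-Rbpj-KO (523 and 685, against 112 and 183 in wild type, log2 change 2.06, adjusted p = 0.00881 by limma). It had 255 and 209 in EC-N1ICD, against 64 and 150 in wild type (adjusted p = 0.178 by limma). Gadd45a, the relative of Gadd45b and named here after its values were seen, differed the other way, with 109 and 168 in EC-Rbpj-KO tissue, against 263 and 198 in wild type (log2 difference -0.75, adjusted p = 0.173 by limma). In EC-N1ICD it had 45 and 64, against 82 and 86 in wild type (log2 difference -0.65, adjusted p = 0.412 by limma).

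**Figure D5:**
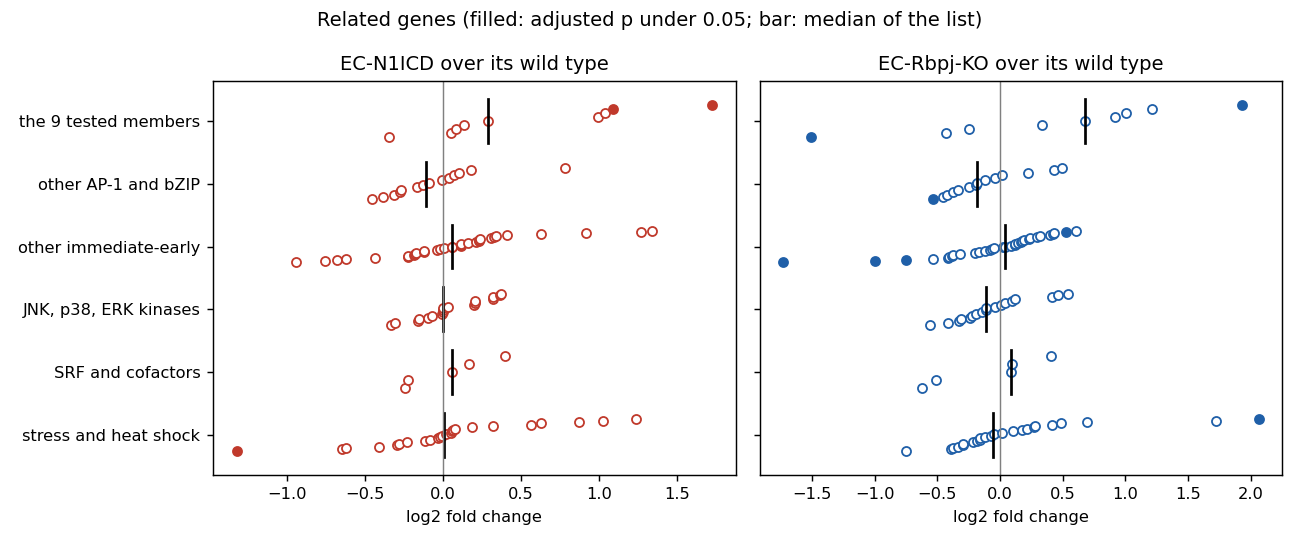
Log2 fold change of the 9 tested members and of the tested genes of 5 related lists in each model, filled where the adjusted p is under 0.05, with a bar at the median. The medians of the members are 0.29 (EC-N1ICD) and 0.68 (EC-Rbpj-KO), and those of the related lists lie between -0.18 and 0.09.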

How the data were processed

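RNA of E9.5 yolk sac was measured on 8 single-channel arrays, 2 in each of 4 groups assigned from source names, titles and genotypes. The authors deposited intensity values that MAS5 had summarised to 1 signal for each probe set on an array (version and scaling target not given in the sources used here). They are linear, run from 7 to 36554 and were used as deposited. Of the probe sets, 34958 name 1 gene, 932 several and 9211 none, and only the probe sets of 1 gene were used. Per gene the one brightest on average was taken, and genes at or below the 40th percentile of mean signal were left out of the test. Log2 signals of all 8 arrays were analysed with limma 3.58.1 under R 4.3.3 (each mutant against the wild type of its set, eBayes with trend, 4 residual and 7.37 prior degrees of freedom), with two-sided p-values and Benjamini-Hochberg adjustment over 10913 genes. Values of genes below the filter come from a fit without it. An exact permutation test of 2 against 2 arrays cannot go below p = 0.333 and was not used.

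The members and the gene lists were chosen with earlier results of these data known, and the lists on related pathways and cell types were adapted from general knowledge and earlier work on these arrays. Of 177 listed genes 169 were matched, among them the visceral endoderm marker Trf, which was matched by synonym to a different gene, Trh. Named were all members, up to 3 genes of each related list past the test and apart in their arrays, Rbpj, Hey1, Heyl and Nrarp as model checks, Xist and Eif2s3y as sex checks, and the 5 genes most like the members. Zfp36l2, Gadd45a, Cldn5, Tek and the immediate-early and stress genes listed by an unadjusted p under 0.05 were named after their values were seen. The alternatives were other filters, scalings, probe set rules and variance models, the methods' t-test, sex, and leaving out each array. Replicate numbers follow the accession order and pair no samples. The steps were tested on simulated data. The number of arrays limits the precision.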

Additional observations from a re-analysis of the deposited data

How the results depend on the processing

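The direction of Jun, Gadd45b and Ier3 was kept in both models, and of Junb, Jund, Fos, Atf3 and Egr1 in EC-Rbpj-KO, under every alternative run. Calls were less stable, and unless stated otherwise the cause was not tested. In EC-N1ICD, where 65 genes and 2 members were called, other counts of genes and members were 68 and 0 without the filter, 27 and 0 with a filter at the 60th percentile, 106 and 2 with median centring, 118 and 2 with quantile normalization, 68 and 1 with the mean of all probe sets, 50 and 1 without a variance trend, 103 and 1 with the 4 arrays of the set alone, 0 and 0 by the methods' t-test after adjustment, 939 and 4 unadjusted, and 15 and 0 with sex in the fit. In EC-Rbpj-KO, with 541 and 2, they were 466 and 1, 407 and 1, 675 and 4, 660 and 4, 420 and 2, 387 and 1, 266 and 1, 1 and 0, 1313 and 1, and 614 and 1 in the same order of settings. Of the calls there, 218 were higher and 323 lower as reported, 375 and 300 with median centring, 357 and 303 with quantile normalization, and 136 and 478 with sex in the fit. The contrast of both changes called 29 genes as reported, 17 with the mean of all probe sets, 3 without a variance trend and 71 with sex in the fit, and no member under any alternative run.

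Leaving out 1 array at a time gave 7 to 140 genes and 0 to 3 members in EC-N1ICD, 147 to 628 genes and 1 to 5 members in EC-Rbpj-KO, and 5 to 80 genes in the contrast. In EC-N1ICD, 7 genes were called without its replicate 1, and without EC-Rbpj-KO replicate 2, 140 genes and 3 members. In EC-Rbpj-KO, 147 genes were called without wild type replicate 2, 191 without wild type replicate 1, and 5 members without EC-Rbpj-KO replicate 2.

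Changes of sign on the log2 scale were limited to values that did not pass the test. With sex in the fit the EC-N1ICD values were 0.65 for Junb, -0.32 for Jund, -0.46 for Fos, -0.12 for Atf3, -0.13 for Egr1 and -0.83 for Ier2, and the contrasts -0.47 for Egr1 and -0.12 for Ier2. With quantile normalization the contrast of Ier3 was 0.014. With 1 array left out, EC-N1ICD values ran from -0.74 to 0.049 for Junb, -0.15 to 0.25 for Jund and -0.18 to 0.35 for Ier2, the EC-Rbpj-KO value of Ier2 from -0.70 to 0.21, and the contrasts from -0.25 to 0.16 for Atf3, -0.47 to 0.70 for Egr1, -0.12 to 0.79 for Ier2 and -0.45 to 0.44 for Ier3. No paired analysis was possible because the replicate numbers follow the accession order and pair no arrays. Signals near the array median, as for Junb, or far below it, as for Fosb, limit the size of a fold.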
